A study of Saccharomyces cerevisiae with 6 samples.

Results

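The histone genes of budding yeast were followed on Affymetrix expression arrays of 2 strains. The members were HTA1, HTA2, HTB1, HTB2, HHT1, HHT2, HHF1, HHF2, HTZ1 and HHO1, and every probe set that the array's annotation names for one of them was taken, 10 probe sets out of 10928 in the table. Of the 10 genes 9 have a probe set, among 5449 genes of this yeast that were tested. HTA2 has 2, one of them of the s_at kind, which can bind several similar transcripts. HHF1 has only an s_at probe set, and HHF2 has none under its own name. Which transcripts these s_at probe sets bind is not given in the tables used here.

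In the tested strain, NGY051, a kan marker replaces PMR1, the gene of the Golgi pump for calcium and manganese (3 arrays). The other strain was its wild-type parent, given as BY4147 in most labels and as BY4741 in the genotype of the deletion (3 arrays). The wild type is of mating type a and carries deletions of URA3, LEU2, HIS3 and MET15, and the deletion strain is labelled as its derivative. Both grew exponentially in YPAD, a rich medium, to which 5 mM calcium chloride was added. Separate cultures are not stated for the replicates, so the p-values rest on a spread between samples that may be technical only, and the deletion is a single strain.

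Histones are the proteins around which DNA is wound. The nucleosome core is built from H2A, H2B, H3 and H4, and in budding yeast each of these is encoded by a pair of genes that lie head to head with a gene of their partner: HTA1 beside HTB1, HTA2 beside HTB2, HHT1 beside HHF1 and HHT2 beside HHF2. Their mRNAs carry poly(A) tails, unlike most histone mRNAs of animals, and accumulate during S phase, when new DNA must be packed. The Hir complex represses all of these pairs but HTA2-HTB2 outside S phase. HTZ1 encodes the variant H2A.Z, which the SWR1 remodeler places near promoters, and HHO1 encodes the linker histone H1. In the R64 gene table the members of each pair adjoin and have locus names of opposite strands: YDR224C and YDR225W for HTB1 and HTA1, YBL003C and YBL002W for HTA2 and HTB2, YBR009C and YBR010W for HHF1 and HHT1, and YNL031C and YNL030W for HHT2 and HHF2.

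The deleted gene checked the labels. PMR1 (YGL167C) had levels of 2.79, 3.45 and 3.16 in the deletion, below the array background on each array, against 11.81, 11.79 and 11.84 in the wild type. The 5498 tested probe sets of S. cerevisiae had medians of 10.34 to 10.39 per array, as log2 levels, and their median log2 change was 0.01. Of the 6 markers of mating type a, all were above background on all 6 arrays, with mean levels of 10.64 to 13.39. Of the 4 markers of the opposite mating type, 1 was below background on all arrays and the other 3 were above it on all arrays.

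The probe sets of HTA2, HTB2, HHT1 and HHF1 gave slightly lower levels in the pmr1 deletion. Those of HTA1, HTB1, HHT2, HTZ1 and HHO1 did not pass the test, and HHF2 was not measured on its own. Of the 10 histone probe sets 5 fell and 0 rose by limma at an adjusted p under 0.05, against backgrounds of 11.7% lower and 17.5% higher over all tested probe sets. All 5 belong to core histone genes: both probe sets of HTA2 and those of HTB2, HHT1 and HHF1. The median log2 change was -0.13 over the 10 probe sets and -0.18 over the 8 of core genes, against 0.01 over all tested probe sets. On all 8 core probe sets the 3 deletion values lay below the 3 wild-type values, a pattern that 19.3% of the tested probe sets showed. The changes are small, and each of the 10 lies between the 5th and 95th percentile of all changes, -0.32 and 0.37. As the arrays were set to a common distribution, a change is relative to the other transcripts, and in bulk cultures fewer cells with a transcript and less of it per cell cannot be told apart.

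The count of 5 depends on single arrays and on what is tested. It was 1 without deletion replicate 1, 2 without deletion replicate 3, 2 without wild-type replicate 1, and 1 when every probe set on the array entered the test. Lower calls over all tested probe sets, 642 in the main fit, were then 373, 398, 471 and 325 in the same order. The count was 7 under each renewed scaling, with a trend in the variance prior, with array weights and without deletion replicate 2. Lower calls over all tested probe sets were then 590 without deletion replicate 2 and 734 to 1087 in the others. The median change over the 10 histone probe sets stayed between -0.16 and -0.11 under every alternative run.

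**Figure D1:**
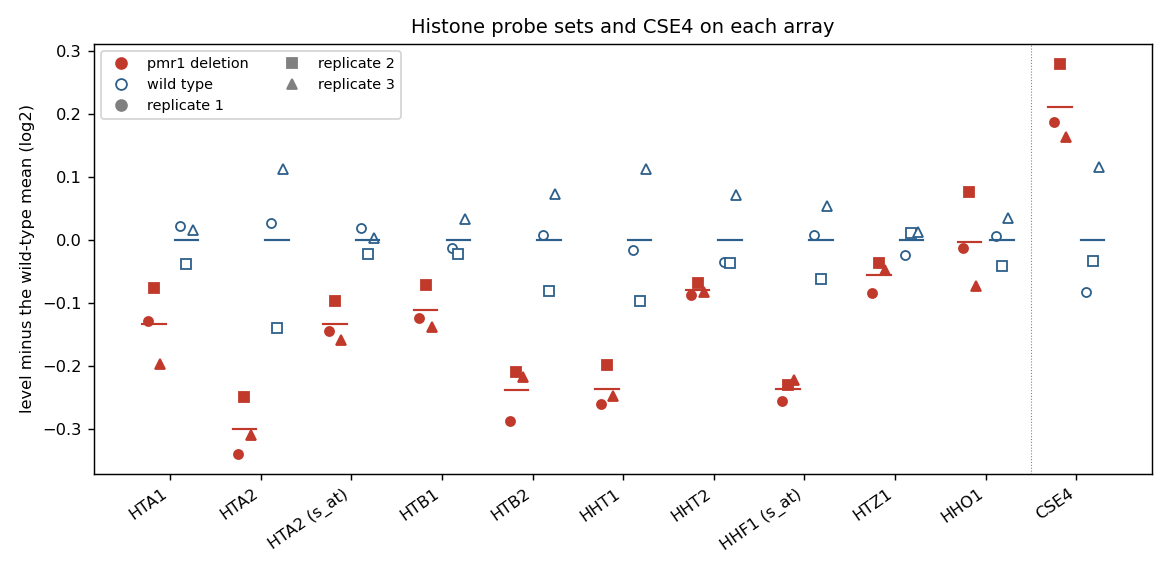
Levels of the histone probe sets and of CSE4 on each array, as log2 differences from the wild-type mean of that probe set, with the pmr1 deletion at the left of each pair, the wild type at the right, short bars at the group means and symbols by replicate. On the 8 core probe sets, HTA1 to HHF1, all 3 deletion arrays lie below all 3 wild-type arrays.

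Among the genes for H2A, the fall passed the test for HTA2. On its own probe set HTA2 (YBL003C) had levels of 12.54, 12.63 and 12.57 in the deletion, against 12.91, 12.74 and 12.99 in the wild type. The groups did not overlap, and the wild-type arrays were spread more widely than the deletion arrays. HTA2 fell by 0.30 on the log2 scale (SE 0.066, limma adjusted p = 0.0161), the largest change among the members, and so fell by 18.7%, with a 95% interval from -27.1% to -9.38%. This call ended without deletion replicate 1 (adjusted p = 0.0605), without deletion replicate 3 (adjusted p = 0.0506), without wild-type replicate 1 (adjusted p = 0.0518) and when every probe set on the array was tested (adjusted p = 0.0598).

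The s_at probe set of HTA2 had levels of 13.996, 14.04 and 13.98 in the deletion, against 14.16, 14.12 and 14.14 in the wild type. It fell by 0.13 (SE 0.034, limma adjusted p = 0.0281), so the 2 probe sets of HTA2 moved the same way by different amounts. Among the fits that leave out an array, the call of the s_at probe set ended without any of deletion replicates 1 and 3 and wild-type replicates 1 and 3, with adjusted p between 0.0776 and 0.0998. It also ended when every probe set was tested (adjusted p = 0.133).

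HTA1 (YDR225W) had levels of 13.66, 13.71 and 13.59 in the deletion, against 13.81, 13.75 and 13.80 in the wild type. The groups did not overlap, but the log2 change of -0.13 (SE 0.042, 95% interval -0.23 to -0.03) missed the threshold with a limma adjusted p of 0.0546. It passed under each renewed scaling, with adjusted p between 0.0234 and 0.0295, with a trend in the variance prior (0.00554), with array weights (0.00829) and without deletion replicate 2 (0.0402). To 2 decimals its change equals that of the s_at probe set of HTA2.

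The genes for H2B, which pairs with H2A, gave a like picture. HTB2 (YBL002W), the divergent partner of HTA2, had levels of 12.96, 13.04 and 13.03 in the deletion, against 13.26, 13.17 and 13.33 in the wild type. With no overlap between the groups, HTB2 fell by 0.24 on the log2 scale (SE 0.049, limma adjusted p = 0.0123), and so fell by 15.2%. Its call ended without deletion replicate 1 (adjusted p = 0.052) and when every probe set on the array was tested (adjusted p = 0.0548).

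HTB1 (YDR224C), the divergent partner of HTA1, had levels of 13.91, 13.97 and 13.90 in the deletion, against 14.03, 14.02 and 14.07 in the wild type. Its groups did not overlap either, and its log2 change was -0.11 (SE 0.036, 95% interval -0.20 to -0.03, limma adjusted p = 0.0571). As for HTA1, the call appeared under each renewed scaling (adjusted p 0.0321 to 0.0358), with a trend in the variance prior (0.00345), with array weights (0.00944) and without deletion replicate 2 (0.0498). HTA1 and HTB1 therefore stand at the edge of the threshold.

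Of the genes for H3, HHT1 (YBR010W) had levels of 13.39, 13.45 and 13.40 in the deletion, against 13.63, 13.55 and 13.76 in the wild type. No deletion value reached the wild-type range, and HHT1 fell by 0.24 (SE 0.057, limma adjusted p = 0.0218). The call ended without deletion replicate 1 (adjusted p = 0.0753), without deletion replicate 3 (adjusted p = 0.0653), without wild-type replicate 1 (adjusted p = 0.0541) and when every probe set was tested (adjusted p = 0.0814).

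HHT2 (YNL031C), the other gene for H3, had levels of 13.38, 13.40 and 13.39 in the deletion, against 13.44, 13.44 and 13.54 in the wild type. These groups lay close together without overlap, and the log2 change of -0.08 (SE 0.041) had a 95% interval of -0.18 to 0.02 (limma adjusted p = 0.187). It stayed short of the threshold under every alternative run, with adjusted p of at least 0.0645.

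For H4 the only probe set was the s_at one annotated to HHF1 (YBR009C), the divergent partner of HHT1. It had levels of 13.47, 13.50 and 13.51 in the deletion, against 13.74, 13.67 and 13.78 in the wild type. The groups were clearly apart, and HHF1 fell by 0.24 (SE 0.04, limma adjusted p = 0.00573), or by 15.1%. This was the one member call that held in each of the 14 alternatives that keep s_at probe sets, with adjusted p of at most 0.0344. As the probe set can bind several transcripts, the value cannot be assigned to HHF1 alone, and HHF2 (YNL030W) has no value of its own.

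**Figure D2:**
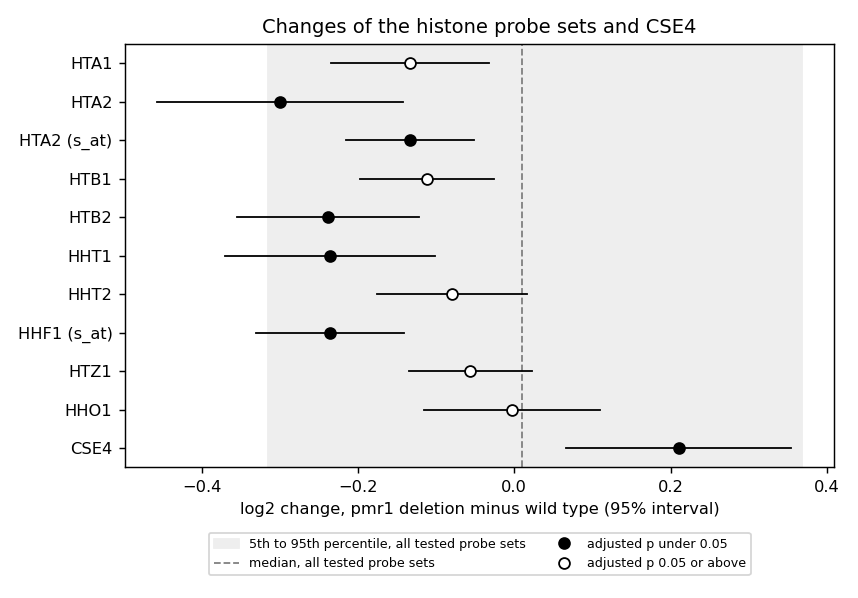
Log2 change in the pmr1 deletion minus the wild type for each histone probe set and for CSE4, with 95% intervals from limma, filled where the adjusted p was under 0.05. The grey band spans the 5th to 95th percentile of all tested probe sets, -0.32 to 0.37, and the dashed line their median, 0.01. The probe sets of HTB2, HHT1 and HHF1 and the HTA2 one that is not s_at lie between -0.30 and -0.24. The s_at probe set of HTA2 lies at -0.13, and HHO1 lies at 0.00.

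The variant and linker histones showed smaller differences. HTZ1 (YOL012C), the gene for H2A.Z, had levels of 11.82, 11.86 and 11.85 in the deletion, against 11.88, 11.91 and 11.91 in the wild type. The groups were apart, but the log2 change of -0.06 (SE 0.033) had a 95% interval of -0.13 to 0.02 and a limma adjusted p of 0.249.

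HHO1 (YPL127C), the gene for H1, had levels of 11.98, 12.07 and 11.92 in the deletion, against 12.00, 11.95 and 12.02 in the wild type. The groups overlapped, and the log2 change was 0.00 (SE 0.047, 95% interval -0.12 to 0.11, limma adjusted p = 0.972), an interval that allows a change of -7.67% to 7.88%. Neither HTZ1 nor HHO1 passed the threshold under any alternative run.

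CSE4 (YKL049C), which encodes the centromeric relative of H3 and is no member, had levels of 9.85, 9.94 and 9.83 in the deletion, against 9.58, 9.63 and 9.78 in the wild type. All 3 deletion values were above the wild-type ones, and CSE4 rose by 0.21 (SE 0.061, limma adjusted p = 0.04). The call of CSE4 ended without any 1 of the 3 deletion replicates or of wild-type replicates 1 and 2, with adjusted p of up to 0.127 over all alternatives.

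Gene copies that encode the same histone were compared for unequal change. For each array the log2 level of one copy was subtracted from that of the other on probe sets that are not of the s_at kind. Such a difference shows only whether the copies changed unequally, since levels of different probe sets are not comparable. It was computed for the 3 pairs that have such probe sets and, added after the values were seen, for the mean of the 8 core probe sets against HTZ1, HHO1 and CSE4. With 3 arrays against 3 the smallest two-sided exact permutation p is 0.1, so none of these 6 comparisons can pass a threshold of 0.05, and all 6 had p = 0.1 before and after Benjamini-Hochberg adjustment over them.

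HTA1 minus HTA2 was 1.12, 1.08 and 1.02 in the deletion, against 0.90, 1.01 and 0.81 in the wild type. The groups did not overlap, and HTA2 went down by 0.17 more than HTA1 on the mean. HTB1 minus HTB2 was 0.95, 0.92 and 0.87 in the deletion, against 0.77, 0.85 and 0.75 in the wild type, a shift of 0.13 in the same direction. On the probe sets compared, the copy of the HTA2-HTB2 pair was thus the one further down in the deletion for both H2A and H2B. For H2A this rests on the HTA2 probe set that is not s_at. The s_at probe set of HTA2 changed by -0.13, as HTA1 did.

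HHT1 minus HHT2 was 0.00, 0.05 and 0.01 in the deletion, against 0.20, 0.12 and 0.22 in the wild type. Here too the groups were apart, and HHT1 changed by 0.16 more than HHT2 in the downward direction. Leaving out each array in turn and the 3 renewed scalings kept the sign of all 3 shifts, with ranges of 0.12 to 0.22 for H2A, 0.11 to 0.16 for H2B and -0.19 to -0.14 for H3.

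Relative to each of the other histone genes the core mean was lower in the deletion. The shift of the core mean minus HTZ1 was -0.13, with 1.60, 1.60 and 1.57 in the deletion, against 1.75, 1.65 and 1.76 in the wild type. Against HHO1 it was -0.18, with 1.44, 1.40 and 1.51 in the deletion, against 1.63, 1.61 and 1.65 in the wild type. Against CSE4 it was -0.39, the largest of these shifts. In all 3 the groups did not overlap.

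**Figure D3:**
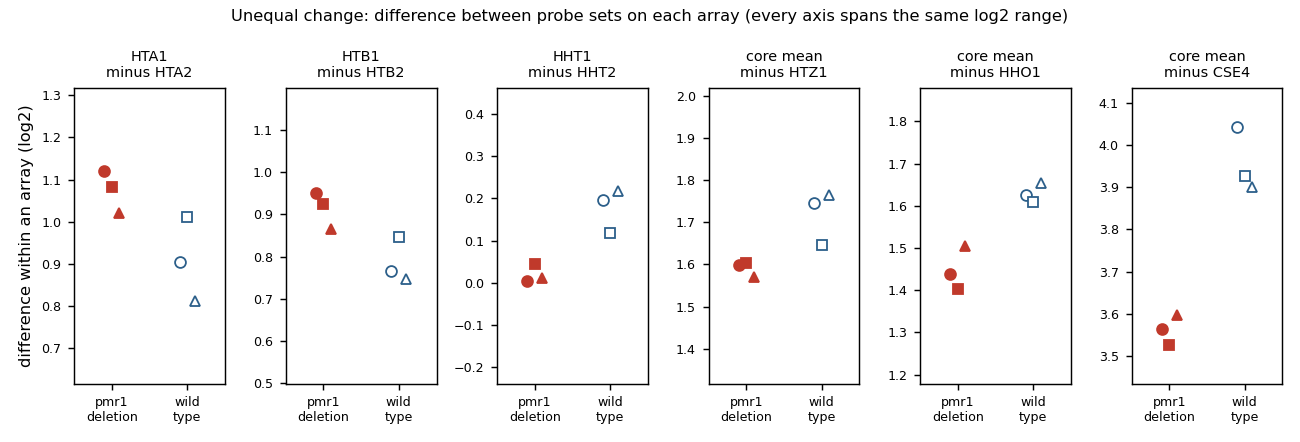
Log2 difference between probe sets within each array, for the 3 pairs of gene copies and for the mean of the 8 core probe sets minus HTZ1, HHO1 and CSE4, with the pmr1 deletion filled at the left and the wild type open at the right. Every vertical axis spans the same log2 range. In each panel the 3 deletion arrays lie apart from the 3 wild-type arrays, with shifts from -0.39 for CSE4 to 0.17 for HTA1 minus HTA2.

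The brightness of the probe sets was read beside the size of the change. The core probe sets lay 0.89 to 2.24 below the highest level on any array, 14.97, and all had mean levels above 89.5% of the tested probe sets. HTA2, on its own probe set the dimmest of the 8, had the greatest change. HTA1, HTB1 and the s_at probe set of HTA2, the 3 brightest, changed by 0.11 to 0.13 in size. Brightness and change did not run together throughout: HHT2, dimmer than these 3, changed less. HTZ1 and HHO1, dimmer than all 8, changed least of the members. The part of brightness in these differences was not tested. Among the 575 tested probe sets at least as bright as the dimmest core one, 6.09% were lower and 15.1% higher past the threshold, and their median log2 change was 0.00.

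The core probe sets also shared an order of the replicates. Wild-type replicate 2 had the lowest wild-type value on 8 of the 8 core probe sets and wild-type replicate 3 the highest on 6. In the deletion, replicate 2 had the highest value on 7 of the 8. How many other tested probe sets share this order was not computed, so it cannot be called particular to the histone genes. The mean over the core probe sets was 13.42, 13.47 and 13.42 in the deletion, against 13.62, 13.56 and 13.68 in the wild type, so the groups differed by more than the SD between arrays, 0.029 in the deletion and 0.061 in the wild type. The tested probe sets' median on deletion replicate 2, 10.39, was also the highest of the 6 arrays, and without it 7 histone probe sets fell.

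The 5 other probe sets whose profile over the 6 arrays came closest to that of the core mean were those of SAM4, a homocysteine methyltransferase, MCM16, a kinetochore protein, HIS6 of histidine synthesis, MPS2 of the spindle pole body and NRD1, an RNA-binding factor of transcription termination. Likeness was the root mean square difference between deviations from each probe set's own mean, and it was 0.016 to 0.019 on the log2 scale. A much wider limit of 0.1 was met by 1701 tested probe sets outside the members. HHO1, whose groups overlapped, met that limit too, so the count does not show how common the core profile was. The core probe sets lay 0.031 to 0.071 from the mean that they form, HTZ1 0.074 and HHO1 0.096.

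Genes that adjoin the histone genes were read next. The nearest measured gene was taken on each side of the 4 core pairs, of HTZ1 and of HHO1, a comparison added after the values were seen. Of these 12 genes 1 rose and 0 fell, against 17.5% higher and 11.7% lower over all tested probe sets. The one was PLB3, a phospholipase gene beside HTZ1, which rose by 0.66 (SE 0.059, limma adjusted p = 0.000417). All 8 neighbours of the core pairs missed the threshold. On the 2 sides of the HTA2-HTB2 pair, UTP20, beside HTA2, had a log2 change of -0.12 and ECM15, beside HTB2, one of 0.12. IPP1, beside HHT1, had 0.03.

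Among 12 factors that control histone transcription, 1 rose and 0 fell, against 17.5% higher and 11.7% lower over all tested probe sets. Their median log2 change was 0.01. The one was SPT10, an activator of the core histone genes, which rose by 0.19 (SE 0.059, limma adjusted p = 0.0496). Its call ended without any 1 array other than deletion replicate 2 and under each renewed scaling, with adjusted p of up to 0.15. The subunits of the Hir repressor, HIR1, HIR2, HIR3 and HPC2, the chaperones ASF1 and RTT106, the boundary factor YTA7, the activator SPT21 and the G1/S factors SWI4, SWI6 and MBP1 did not pass the test.

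Of 15 histone chaperones and carriers, 2 rose and 2 fell, with a median of -0.01. The shares over all tested probe sets were 17.5% higher and 11.7% lower. NHP6A, an HMG-box protein that works with the chaperone FACT, fell by 0.19 (SE 0.04, limma adjusted p = 0.0128). MSI1, a subunit of the chromatin assembly factor that deposits H3 and H4, fell by 0.15 (SE 0.037). NAP1, a chaperone of H2A and H2B, rose by 0.14 (SE 0.04), and KAP114, the importin that carries them into the nucleus, rose by 0.16 (SE 0.037). Leaving out single arrays ended all 4 calls: that of NHP6A without deletion replicate 1, that of MSI1 without deletion replicates 2 or 3 or wild-type replicate 1, that of NAP1 without any array but wild-type replicate 2, and that of KAP114 without deletion replicates 1 or 2 or wild-type replicates 1 or 3.

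Of 18 subunits of the remodelers SWR1 and INO80, which put in and take out H2A.Z, 5 rose and 2 fell, with a median of 0.05. Over all tested probe sets 17.5% were higher and 11.7% lower. The catalytic subunit SWR1 fell by 0.17 (SE 0.041, limma adjusted p = 0.0216). ARP8 rose by 0.20, IES6 by 0.18 and ARP6 by 0.18, the first 2 subunits of INO80 and the last of SWR1, with adjusted p of at most 0.0488. The call of SWR1 ended without deletion replicates 1 or 3, and that of ARP6 without any array but wild-type replicate 2.

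Among 23 histone-modifying enzymes 1 rose and 4 fell, with a median of 0.00, against 17.5% higher and 11.7% lower over all tested probe sets. The greatest change in this list was that of SIR2, the deacetylase of silent chromatin, which fell by 0.81 (SE 0.057, limma adjusted p = 0.00017). HST4, a related deacetylase of H3, fell by 0.19, the acetyltransferase SAS3 fell by 0.14, and the demethylase RPH1 rose by 0.19. The call of SIR2 held under all 15 alternatives (adjusted p of at most 0.00181), that of SAS3 ended without any array but wild-type replicate 2, and that of RPH1 without deletion replicates 1 or 2 or wild-type replicates 1 or 3. Of 8 genes for the turnover of histone mRNA and protein 1 rose and 1 fell, to be read against the same shares. PAP2, a poly(A) polymerase of nuclear RNA decay, fell by 0.23 (SE 0.041, limma adjusted p = 0.00662), and the ubiquitin-conjugating enzyme UBC5 rose by 0.27 (SE 0.083), a call that ended without any array but wild-type replicate 2.

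Since histone mRNAs peak in S phase, other genes of S phase and genes of other cell-cycle phases were read beside them. Of 21 genes of G1/S and S phase 3 rose and 1 fell, with a median of 0.01, against 17.5% higher and 11.7% lower over all tested probe sets. The 3 that rose were the G1 cyclins PCL1, which rose by 0.80 (SE 0.08, limma adjusted p = 0.000656), CLN2, which rose by 0.79 (SE 0.096), and CLN1, which rose by 0.56 (SE 0.059). RFA2, a subunit of the single-strand DNA-binding complex of replication, fell by 0.17 (SE 0.048), a call that ended without any 1 of the 6 arrays. The mean level of the 21 genes, these cyclins included, was 10.65 to 10.72 in the deletion, against 10.49 to 10.63 in the wild type. Of the 21 genes 17 were not called.

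Of 16 measured genes of G2/M and M/G1 1 rose and 3 fell, with a median of 0.00, against 17.5% higher and 11.7% lower over all tested probe sets. The daughter-cell genes DSE2 and DSE1 fell by 0.58 (SE 0.066) and 0.57 (SE 0.047), the chitinase CTS1 of cell separation fell by 0.26, and the kinesin KIP2 rose by 0.31 (SE 0.042). The mean level of all 16 genes, these included, was 11.12 to 11.15 in the deletion, against 11.16 to 11.21 in the wild type. Of the 16 genes 12 were not called. The part of the cell-cycle composition of the cultures in the histone values was not tested.

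**Figure D4:**
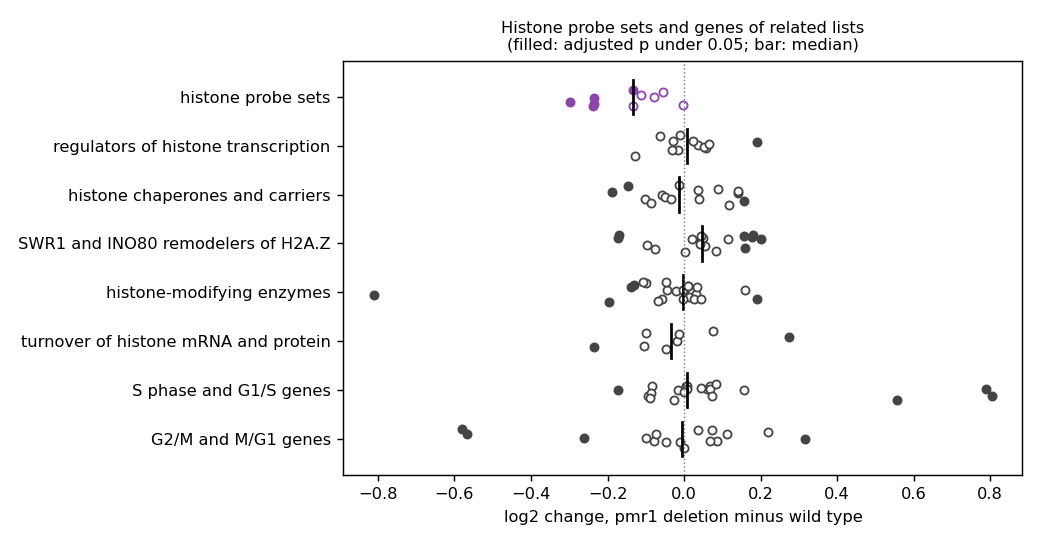
Log2 change in the pmr1 deletion minus the wild type for the 10 histone probe sets and for the measured genes of 7 related lists, 1 probe set per gene, filled where the adjusted p was under 0.05, with a bar at each median. The histone median lies at -0.13, and the medians of the other lists lie between -0.03 and 0.05.

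Markers of mating type moved with the strains. Over all tested probe sets 17.5% were higher and 11.7% lower. Of 6 genes specific to mating type a 5 fell, all but BAR1, and their mean level was 11.92 to 11.97 in the deletion, against 12.32 to 12.39 in the wild type. Of 4 genes specific to mating type alpha 3 rose, STE3, SAG1 and MF(ALPHA)2, with a mean level of 6.72 to 6.78 in the deletion, against 6.49 to 6.56 in the wild type, and MF(ALPHA)1 was below background on all arrays. Of 5 genes of sporulating diploids 0 rose and 2 fell, with a mean level of 6.86 to 6.90 in the deletion, against 6.92 to 7.10 in the wild type. Their part in the histone values was not tested.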

How the data were processed

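Arrays of 6 samples were taken from the deposited value table of 10928 probe sets. Its log2 values were made by the authors with GCOS, RMA and limma, per the submitters' processing notes, with no versions given. RMA corrects background, gives arrays a common distribution and summarises probes. Folds of array levels can be compressed near both ends of their range. Groups came from the titles. Per the probe annotation, 5498 probe sets belong to S. cerevisiae, and current names came from the R64 gene table. These were compared with limma 3.58.1 in R 4.3.3 (lmFit, eBayes, two-sided), with Benjamini-Hochberg adjustment over all of them and a threshold of 0.05. The script was tested on simulated data. Array background was the 95th percentile of 1746 S. pombe probe sets, 4.18 to 4.31. Differences within arrays used two-sided exact permutation tests. Arrays have no read depth, so their number sets the precision. The table has 0 columns of other samples, and the labels give no batch.

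The histone genes, the gene lists and the tests were chosen with earlier results of these data known. Named genes were every histone probe set, CSE4, PMR1, at most 4 genes per list, those that changed most among those past the threshold, and the 5 probe sets most like the core histone profile. Outside that rule, and chosen after their values were seen, are PLB3, UTP20, ECM15, IPP1, the mating-type genes and the 11 regulators of histone transcription that did not pass. Alternatives were other variance priors, 3 scalings, a dim-probe filter, other sets of probe sets, array weights, a replicate block and leaving out each array. Figures used matplotlib 3.10.9.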

Additional observations from a re-analysis of the deposited data

How the results depend on the processing

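Counts, medians and single probe sets were recomputed under 15 alternatives, or 14 for the s_at probe sets, and the differences within arrays under 9, all of which kept their sign. The neighbours other than PLB3 and the counts per gene list were not recomputed. Of 25 named genes outside the members, added after the data were seen, 10 kept their call under all 15 and 12 lost it without at least 1 array. The count of histone probe sets that rose was 0 in every one, and the median log2 change of the 10 probe sets kept its sign, from -0.16 to -0.11. The count of those that fell was 5 and became 1 when every probe set on the array was tested and 3 without s_at and x_at probe sets, which leaves 8 members, and 1 to 7 when leaving out each array. It was 7 under the 3 scalings. For all tested probe sets, 963 were higher and 642 lower, and these became 548 and 325 when the whole array was tested. With array weights 1087 were lower. Leaving out each array gave 599 to 1041 higher and 373 to 629 lower. HHO1 changed sign, between -0.042 and 0.032, when single arrays were left out. Same-numbered samples had correlations of their deviations of -0.138, 0.00 and 0.081. With 3 arrays a group these values cannot settle whether the numbers pair the samples. With the replicate block 4 histone probe sets fell, as the s_at probe set of HTA2 missed the threshold (limma adjusted p = 0.0684). The precision is limited by 3 arrays a group.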

Other observations

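Of the 9 probe sets that the annotation gives to core histone genes of the fission yeast S. pombe, whose RNA the labels do not list, 2 were above the array background on all 6 arrays. The probe set of hta1 averaged 6.59 ± 0.056 (SD, n = 3) in the deletion and 6.77 ± 0.18 (SD, n = 3) in the wild type. That of hhf2 averaged 5.48 ± 0.076 (SD, n = 3) in the deletion and 5.67 ± 0.17 (SD, n = 3) in the wild type. By its definition the background is passed by about 5% of these fission yeast probe sets.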
